A study of Williopsis jadinii with 8 samples.

Results

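In the yeast Candida utilis, the signal of 135 design identifiers (design IDs) rose when the wild type was on xylose instead of glucose. It stood lower again in the xylose-fermenting strain TMS174. These members were found among 8604 design IDs of a one-colour oligonucleotide array, of which 7970 were tested. Each level is the log2 of the array's processed signal over that array's 75th percentile, averaged over the probes of a design ID, so that a level of 0 is the 75th percentile. A member had to be well above background on all 3 wild-type xylose arrays with a mean level of at least -7. It also had to be at least 2-fold (1 on the log2 scale) higher there than in the wild type on glucose, and at least 2-fold lower in TMS174 on xylose than in the wild type on xylose. Detection and level left 6819 design IDs, the rise on xylose left 876, and the fall in TMS174 left the 135 members. The values that chose the members are therefore given as a description, without a test.

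The 8 arrays, each of 1 culture, fall into 3 groups. The wild type (WT), strain NBRC0988, gave 3 glucose cultures, harvested at 10.5 h, and 3 xylose cultures, harvested at 24 h. Strain TMS174, which the submitters call recombinant and able to ferment xylose, gave 2 xylose cultures, harvested at 24 h. The labels do not list its introduced genes. All cultures came from precultures on glucose and grew semi-aerobically at 30 °C in rich medium of yeast extract (10 g/L) with peptone (20 g/L). The xylose medium held 50 g/L of the sugar, and the labels state 20 g/L for the glucose medium. The name of the glucose medium in the sample titles parallels that of the xylose medium, so whether the sugar amount also differed is not settled. Medium and sampling time differ together between the WT groups. All 6 WT arrays shared slide 1, and slide 2, scanned separately, held those of TMS174. Strain and slide therefore cannot be told apart in these data. In bulk RNA of a culture, fewer expressing cells and less RNA per cell cannot be told apart either.

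Yeasts generally repress genes for the use of other carbon sources while glucose is plentiful, and these genes are released from repression when glucose is absent or spent. Xylose, a pentose sugar of plant biomass, is reduced to xylitol, oxidised to xylulose and phosphorylated before it enters the pentose phosphate pathway. Strains engineered for xylose fermentation usually carry added enzymes for these steps. Neither the array files nor the reference table pair the design IDs with gene names: none of the 8604 matched any of the 6184 genes in RefSeq's table of the Cybja1 assembly. Members are therefore given by design ID, with no function, and the 7 pathway lists drawn up for this work could not be applied. Probe sequences were not used here.

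The signal of the members as a set went from low on glucose to high in WT on xylose and lay between in TMS174. Their median level was -5.90, -6.24 and -5.76 on the WT glucose arrays. On the WT xylose arrays it was -1.54, -2.52 and -2.47. On the TMS174 arrays it was -4.61 and -4.51, so both were closer to the glucose arrays than to the xylose arrays of the wild type. Over all 7970 tested design IDs the medians on the 8 arrays stayed between -1.79 and -1.66. The number of members above the 75th percentile was 2 to 5 on glucose, 31 to 40 in WT on xylose, and 9 and 10 in TMS174.

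**Figure D1:**
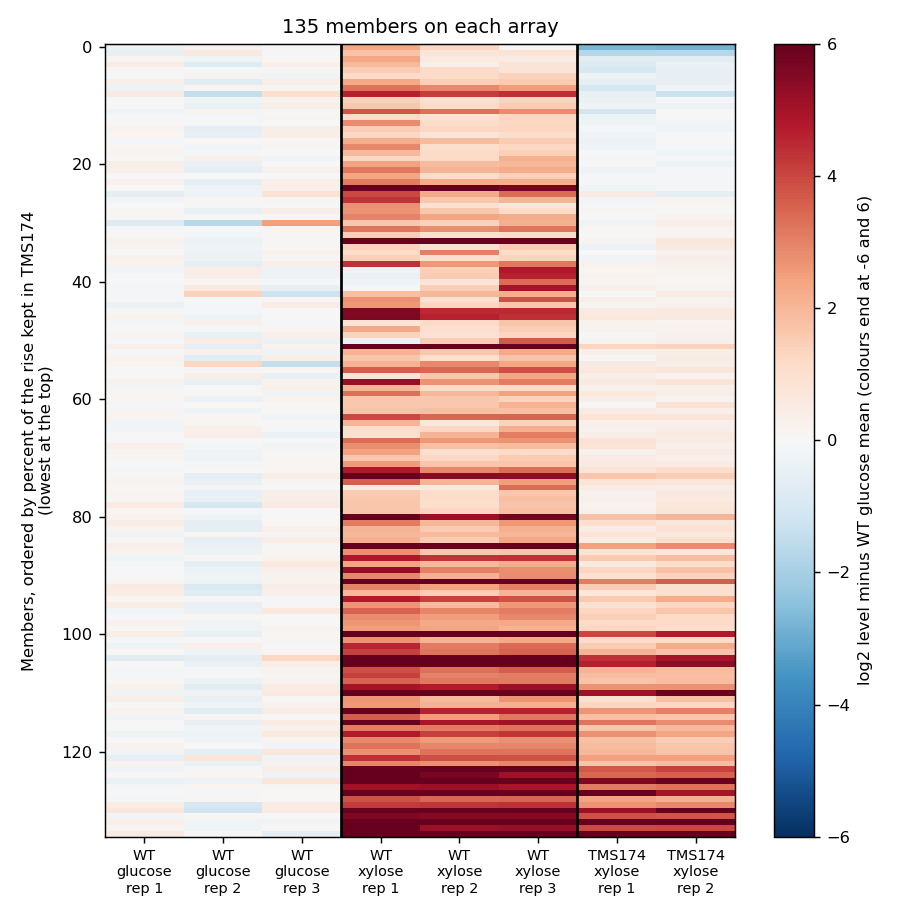
Colours show, for each of the 135 members (rows) on each of the 8 arrays (columns), the log2 level minus the member's WT glucose mean, with rows ordered by the percent of the rise kept in TMS174. Both TMS174 columns are blue or pale in the upper rows and red in the lower rows, and the WT xylose replicate 3 column holds a few rows that are far redder than the other xylose columns.

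The rise in WT had a median of 2.44 (quartiles 1.61 and 3.69, range 1.01 to 14.4), or 5.43-fold, and was at least 4-fold for 82 members and at least 16-fold for 32. The fall in TMS174 had a median of -1.68 (quartiles -2.51 and -1.29, range -6.71 to -1.002), or 3.20-fold. It was at least 4-fold for 48 members and at least 16-fold for 16. The same 2 differences had medians of 0.02 and -0.04 over all design IDs tested. In the fit across all tested design IDs (limma, Benjamini-Hochberg adjusted p under 0.05), 125 members were called higher in WT on xylose than on glucose, where 34.9% of all tested design IDs were. In TMS174, 109 members were called lower than in WT on xylose, against 10.5% of all tested. The rule used both contrasts, so these counts carry no further information about the members. All WT xylose arrays lay above all WT glucose arrays for 127 members (36.8% of all tested), and both TMS174 arrays lay below all WT xylose arrays for 130 (33.8% of all tested).

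**Figure D2:**
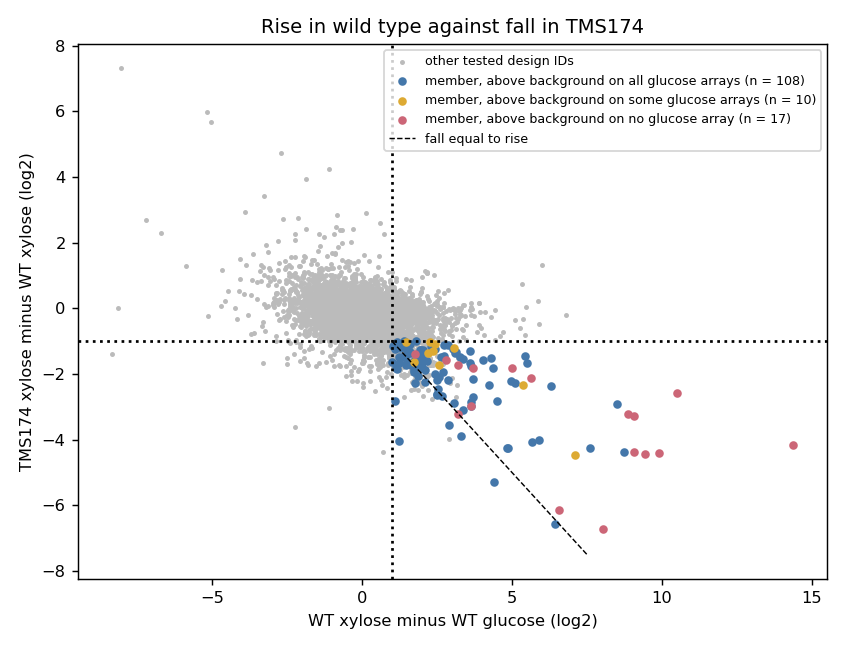
Each point is a design ID, with the WT difference between xylose and glucose on the horizontal axis and the difference between TMS174 and WT on xylose on the vertical axis, both as log2. Members lie right of and below the dotted thresholds, and those under the dashed line fell by more than they had risen; grey points inside the same corner failed the rule on detection or level.

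The label of a damped rise covers a wide range of outcomes, from most of the log2 rise kept to a level below that on glucose. By the rule every member fell at least 2-fold, so a large share kept does not mean a small fall. The log2 rise kept in TMS174, the difference of TMS174 from WT on glucose as a percent of the WT rise, had a median of 24.2% (quartiles 6.66% and 50.2%). Of the 135 members, 26 kept less than 0%, 42 kept 0% to 25%, 33 kept 25% to 50%, 33 kept 50% to 75% and 1 kept more. Thus 101 members kept less than 50% of their rise. In 58 members the TMS174 mean lay within 0.5 of the WT glucose mean on the log2 scale, in 50 it was at least 2-fold above and in 2 at least 2-fold below. In the fit, 54 members were called higher in TMS174 than in WT on glucose (29.5% of all tested) and 4 lower (33.2% of all tested). This contrast was not thresholded, but it uses the arrays that chose the members. Both TMS174 arrays lay above all WT glucose arrays for 78 members (36.1% of all tested) and below them for 7 (39.7% of all tested).

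**Figure D3:**
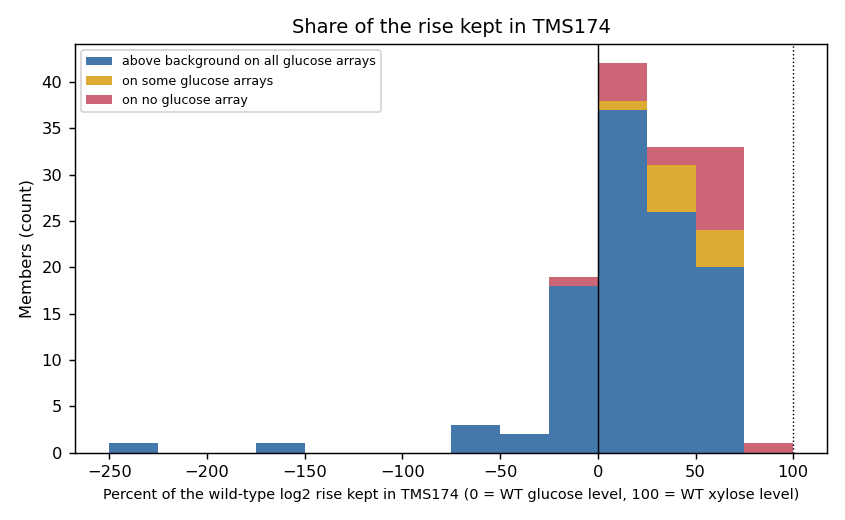
The histogram counts members by the percent of the log2 rise that TMS174 kept, in steps of 25, with colours for detection on the WT glucose arrays. The bar from 0% to 25% is the highest, with 42 members, and the shares of the 17 members above background on no glucose array rest on glucose values under the background.

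Some members had no measurable glucose signal. Of the 135 members, 17 were well above background on no WT glucose array, 10 on some and 108 on all. Among all 876 design IDs that passed detection, level and rise, 24 were above background on no glucose array, and 17 of them were members. These 17 had a median fall of -3.21 in TMS174, against -1.64 for the 108 measured on every array, and 15 of the 17 were still above background on both TMS174 arrays. The 108 kept a median of 18.9% of their rise. For the 17 the glucose level is only an upper bound, so their rise and share kept, which enter the counts above, are not measured values. Normexp background correction, with a constant added to every corrected signal, took the median share over all members from 24.2% to 10.8%.

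The members with the largest rise belonged to this glucose-silent group. The level of cut01g0060195 was -10.4, -10.9 and -10.8 on glucose, 3.78, 3.79 and 3.56 in WT on xylose, and -0.97 and 0.04 in TMS174. On xylose its TMS174 level was 18.1-fold below that of WT, and still at least 300.1-fold above WT on glucose. Such a bound sets the brighter mean against, on each dim array, the probe's own signal or, where that is lower, the dimmest well-above-background signal. The level of cut01g0011054 was -9.57, -10.03 and -10.6 on glucose, 0.65, 0.35 and 0.26 in WT on xylose, and -2.48 and -1.82 in TMS174. It was at least 555-fold higher in WT on xylose than on glucose and at least 93.5-fold higher in TMS174. These bounds hold only for the signal as deposited. Under normexp the rises of cut01g0060195 and cut01g0011054 were 9.35 and 5.96 (log2). Their differences between TMS174 and WT on glucose were then 5.20 and 3.45, which are smaller than the bounds. The groups did not overlap for either design ID.

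The largest falls brought members to or near the glucose level. The level of cut01g0370002 was -9.72, -10.6 and -9.83 on glucose, -0.98, -2.38 and -2.71 in WT on xylose, and -8.76 and -8.72 in TMS174. It was above background on no glucose array, at least 102-fold higher in WT on xylose, and 105-fold lower in TMS174 than there. Its median raw signal in TMS174 was 42, on arrays with a median local background of 26. Both sizes depend on the background correction, and under normexp the rise was 3.46 and the fall -3.58 (log2). The level of cut01g5570001, which was above background on all 8 arrays, was -7.32, -7.66 and -7.06 on glucose, 0.15, -1.28 and -1.61 in WT on xylose, and -7.58 and -7.41 in TMS174. It rose 86.6-fold and fell 96.0-fold, so that the TMS174 arrays lay within the range of the glucose arrays. Under normexp the rise of cut01g5570001 was 4.56 and its fall -4.80 (log2). In both members, WT xylose replicate 1 was the highest of its group.

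Bright members differed in the share they kept: of the 35 with a mean above the 75th percentile in WT on xylose, 25 kept less than 50% of the rise. The member with the highest signal in WT on xylose, cut01g0000407, was at -1.86, -1.61 and -1.67 on glucose, 3.88, 3.73 and 3.73 in WT on xylose, and 2.14 and 2.06 in TMS174. It rose 45.0-fold, was 3.20-fold lower in TMS174 and kept 69.4% of its rise. Among the members above background on all 8 arrays, the largest share was kept by cut01g0000142, at 73.0%. Its levels were -3.74, -4.15 and -3.80 on glucose, 2.04, 1.25 and 1.32 in WT on xylose, and 0.04 and 0.09 in TMS174. The 3 groups of arrays did not overlap for either of them. Signals of different probes are not compared here as amounts of RNA.

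At the other end, a pair of members fell well past the glucose level. The level of cut01g0030485 was -2.42, -1.81 and -2.01 on glucose, 0.25, -0.82 and -1.95 in WT on xylose, and -4.82 and -4.92 in TMS174, which was 6.92-fold below WT on glucose. Its WT xylose replicate 3 lay within the range of the glucose arrays, and without replicate 1 the design ID no longer met the rule. The level of cut01g0011164 was -3.73, -2.75 and -3.33 on glucose, -1.54, -2.52 and -2.47 in WT on xylose, and -5.01 and -5.00 in TMS174. It was 3.32-fold below WT on glucose in TMS174, and it was no member without WT xylose replicate 1 or without WT glucose replicate 1. In both, the fall in TMS174 was larger than the rise in WT, of 2.36-fold and 2.13-fold.

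**Figure D4:**
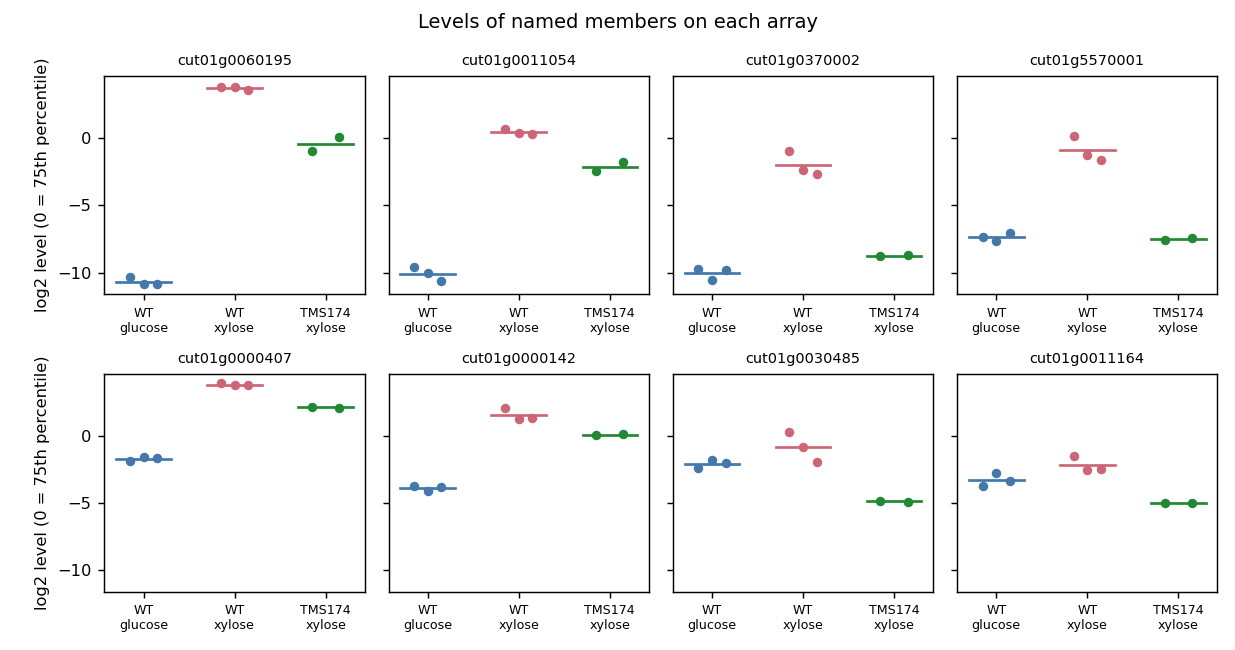
Points give the log2 level on each array for 8 members chosen by the naming rule, and lines the group means (WT glucose n = 3, WT xylose n = 3, TMS174 xylose n = 2). In cut01g5570001 the TMS174 points lie at the level of the glucose points, in cut01g0000407 and cut01g0000142 between both WT groups, and in cut01g0030485 and cut01g0011164 both TMS174 points lie below every other point.

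The WT xylose cultures differed from each other in the members far more than in other risen design IDs. The median SD over the 3 arrays was 0.42 for the members, 0.12 for the 741 other design IDs that had risen, and 0.11 for all tested. Over the 3 WT glucose arrays the medians were 0.27, 0.24 and 0.15. The range over the WT xylose arrays exceeded 1 (log2) in 55 members (40.7%), against 2.29% of the other risen and 4.07% of all tested design IDs. Members were chosen on the mean of these arrays, a choice that 1 high array can meet, so these shares are a description.

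Replicate 1 was the WT xylose array that stood highest for most members. It was the highest of the 3 in 92 members (68.1%), against 53.6% of the other risen and 34.0% of all tested design IDs, and replicate 3 was the highest in 37. It stood more than 1 above the mean of the other xylose arrays in 37 members (27.4%), against 0.690% of all tested. In these 37, all WT xylose arrays still lay above both TMS174 arrays, and 29 of the 37 met the rule without replicate 1. One example, picked after its values were seen, is cut01g0021238, at 0.33, -2.18 and -1.82 in WT on xylose, -4.35 and -4.06 in TMS174, and -4.66, -5.32 and -4.64 on glucose.

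A smaller set was highest by far in replicate 3. In 10 members replicate 3 stood more than 1 above the mean of the other WT xylose arrays (7.41%, against 1.02% of all tested), and 2 of the 10 met the rule without it. In 5 of the 10 all WT xylose arrays lay above all WT glucose arrays. Of the others, 3 uneven ones were picked after their values were seen. The level of cut01g4790001 was -2.23, -0.33 and 2.77 in WT on xylose, -1.96, -1.43 and -2.14 on glucose, and -1.62 and -1.71 in TMS174. The level of cut01g0660001 was -3.84, -2.21 and 1.16 in WT on xylose, -3.78, -3.17 and -3.93 on glucose, and -3.50 and -3.40 in TMS174. For cut01g0001113 the xylose arrays gave -0.20, 1.65 and 3.87, the glucose arrays 0.06, 0.66 and -0.14, and TMS174 0.36 and 0.50. In all 3, replicate 1 on xylose lay within or below the range of the glucose arrays, and membership was lost without replicate 3. In 1 further member, cut01g8280001, replicate 2 stood apart in this way.

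Leaving out single arrays in turn showed which members met the rule whichever array was missing. These still include members with 1 array standing apart, such as cut01g0021238. A total of 94 members met the rule in each of the 8 selections that left out 1 array. Without WT xylose replicate 1, 22 members were lost, without replicate 3, 18, and without TMS174 replicate 1, 11. The other 5 selections lost 0 to 6. The 94 had a median rise of 3.07, a median fall of -1.94 and kept a median of 28.1%.

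Applying the rule without the arrays of 1 replicate number allowed the values to be read in arrays that had not chosen them. Without the replicate 1 arrays it found 122 design IDs, and in those arrays 105 of them rose at least 2-fold on xylose in WT and 97 met both thresholds (79.5%, against 4.24% of all tested design IDs). The median difference there was 2.84 between the WT arrays and -1.96 between TMS174 and WT on xylose. Without the replicate 2 arrays it found 159, of which 88 met both thresholds in the replicate 2 arrays (55.3%, against 2.82% of all tested), with medians of 2.16 and -1.25. The TMS174 array was the lower one for 113 of the 122 and for 154 of the 159. Without the replicate 3 arrays, where TMS174 has none, it found 131, and 113 of these rose at least 2-fold in WT replicate 3. Each such reading rests on 1 array per group and has no replicate check. All tested design IDs had not been chosen for level or rise, and strain and slide stay together in every reading.

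Members often carried consecutive design ID numbers. The numbering was not used by the rule, and whether it follows the order along the genome was not stated in the sources. Of the 135 members, 44 (32.6%) lay in 21 runs of consecutive numbers, 19 pairs and 2 runs of 3. The count in runs was 17 of 87 members after normexp, 24 of 94 with each of 2 probes passing and 21 of 76 with both thresholds at 1.5 (log2). Of 233 tested places next to a member, 46 (19.7%) held another member, whereas 1.69% of all tested design IDs were members. The 185 tested neighbours that were not members had a median difference of 0.14 in WT between the media and of -0.03 between the strains. At least a 2-fold rise was found in 20.0% of them, against 14.97% of all tested, and at least a 2-fold fall in TMS174 in 9.73%, against 6.36%.

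Neighbouring members fell by nearly the same amount in TMS174. The difference between TMS174 and WT on xylose differed by a median of 0.17 between the 23 adjacent pairs, against 0.73 over all 9045 pairs of members, and in 19 of the 23 by less than 0.5. Some like pairs rested on 1 WT xylose array. Both members of the pair cut01g0001113 and cut01g0001114 failed the rule without WT xylose replicate 3. The same held for cut01g0660001 and cut01g0660002, and these pairs too were picked after their values were seen. The rise in WT differed by a median of 0.71 in adjacent pairs, against 1.46 over all pairs, with 10 of 23 within 0.5. In the run cut01g0000962, cut01g0000963 and cut01g0000964 the falls were -1.51, -1.34 and -1.11, and in the run cut01g0030930, cut01g0030931 and cut01g0030932 they were -2.11, -4.44 and -4.37. The most unequal pair was cut01g0000940 and cut01g0000941, at -1.27 and -4.27, and cut01g0060195 had a neighbour, cut01g0060196, at -1.65; these 2 pairs were picked after their values were seen. The array holds more design IDs than the RefSeq table holds genes, and whether neighbours overlap or share sequence was not tested.

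**Figure D5:**
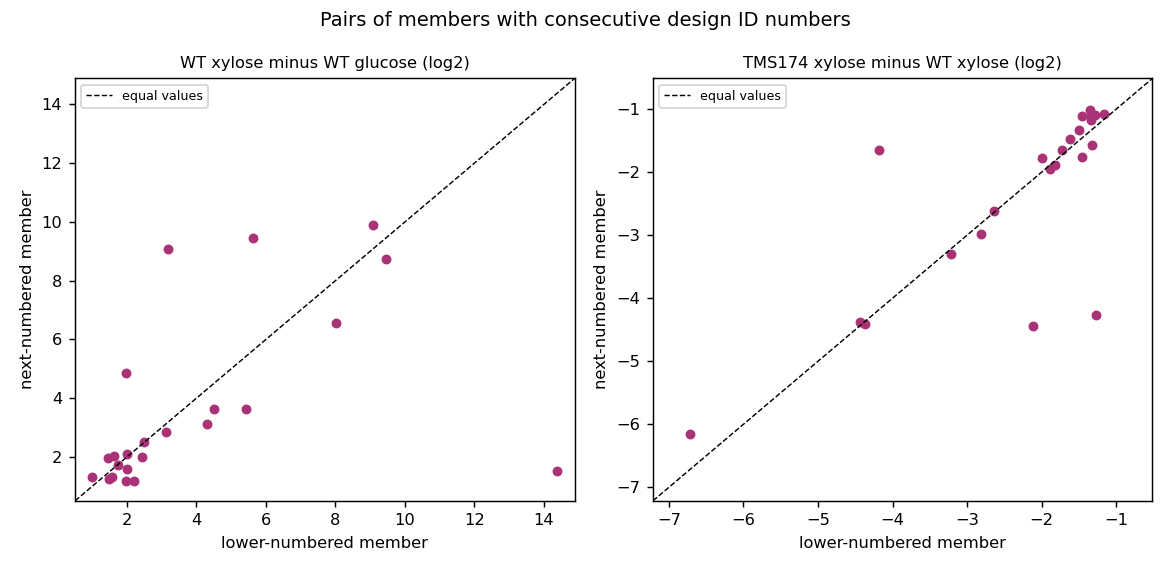
Each point is a pair of members with consecutive design ID numbers (23 pairs), with the lower-numbered member on the horizontal axis and the next on the vertical axis, for the WT difference between media (left) and the difference between TMS174 and WT on xylose (right), both log2. In the right plot 19 of the 23 points lie within 0.5 of the dashed line of equal values.

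The values behind the runs are as follows for both runs of 3. The level of cut01g0000962 was -0.70, -2.09 and -0.64 on glucose, 3.05, 3.16 and 3.25 in WT on xylose, and 1.56 and 1.73 in TMS174. That of cut01g0000963 was -6.48, -6.78 and -6.26, then -3.45, -3.43 and -3.24, then -4.85 and -4.56 in the same order, and that of cut01g0000964 was -5.05, -5.65 and -5.03, then -2.33, -2.51 and -2.30, then -3.59 and -3.39. All 3 had tight xylose replicates and kept 65.0%, 57.4% and 61.1% of the rise. In the other run, cut01g0030930 and cut01g0030931 were above background on no glucose array. By the deposited signal they were at least 13.8-fold and at least 243-fold higher in WT on xylose. Under normexp their rises were smaller than these bounds, at 1.27 and 4.64 (log2). The level of cut01g0030932 was -6.74, -7.55 and -7.03 on glucose, 2.24, 1.56 and 1.09 in WT on xylose, and -3.12 and -2.36 in TMS174. It kept 50.0% of its rise, and replicate 1 was the highest xylose array in all 3.

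Probes of the same design ID mostly gave like differences. A total of 107 members had 2 probes and 28 had 1. Both probes met both fold thresholds in 94 of the 107, and the probes differed by a median of 0.16 in the WT difference and 0.11 in the strain difference. The clearest exceptions were picked after their values were seen. In cut01g0050116 the strain difference was 0.82 for one probe and -6.16 for the other, and in cut01g0040008 the WT difference was 3.35 for one probe and -1.04 for the other, so neither has a settled direction. No spot of a member carried an outlier flag, and no spot of a yeast probe on the arrays was saturated.

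Compared with the 741 other design IDs that rose on xylose in WT, the members had risen more, by a median of 2.44 against 1.504. The rule favours this difference, because a high level in WT on xylose enlarges both the rise and the fall. The 741 kept a median of 91.4% of their rise in TMS174, a contrast that the rule itself set, and 7 of them rose at least a further 2-fold there. Members were above background on no glucose array in 12.6% of cases, against 0.945% of the 741. At the edges of the rule, the smallest rises among members were 1.01 and 1.02 and the nearest outside were 0.999 and 0.968. The smallest falls inside were -1.002 and -1.005, and the nearest outside -0.997 and -0.996. The lowest levels inside were -6.98 and -6.97 and the nearest outside -7.04 and -7.06. A further 304 design IDs met both fold thresholds, all with a mean level in WT on xylose below -7, and are not members. The number of members depended on the scaling and background correction, at 346 when arrays were scaled to the spike-in probes and 87 after normexp.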

How the data were processed

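Per the labels' protocols, 500 ng of RNA from each of 8 cultures was labelled with Cy3. The submitters' processing notes name Agilent Feature Extraction 9.5.3.1 for reading the scans. The deposited scanner files give background-subtracted signal intensity and background flags for 15208 yeast probes, not normalized between arrays. A deposited value table gives the same signal as a ratio to 1 number per array, as its values show. Of the probes, 87.8% to 95.2% were well above background per array, and the 75th percentiles were 2958 to 4130 intensity units.

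Levels were log2 of the deposited intensity over each array's 75th percentile, averaged per design ID. Design IDs above background (any probe) on at least 2 arrays were fitted with limma 3.58.1 in R 4.3.3. The fit used group means, all 8 arrays and eBayes, two-sided, with Benjamini-Hochberg at 0.05. The fit was also checked on simulated arrays, with means and spreads taken from these data, the same spread in all groups and no slide effect. It does not cover unequal spread between groups or single arrays standing apart. Replicates were independent experiments in the submitters' description, and each p rests on their spread. The number of arrays limits the precision. Members, lists and tests were chosen with earlier results of these data known. Design IDs were named by rule: the 2 largest rises, falls and signals, the 2 highest and lowest shares kept among members above background on all arrays, and the longest runs.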

Additional observations from a re-analysis of the deposited data

How the results depend on the processing

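The number of members, 135, was 346 under spike-in scaling, 87 under normexp background correction (85 shared) and 76 with both thresholds at 1.5 (log2); it was 94 with each of 2 probes passing by itself, 120 and 127 under quantile normalization and median scaling, and 127 to 163 with 1 array left out. Spike-in scaling put the median difference of all tested design IDs at 0.40 between the media in WT (0.02 otherwise) and at -0.58 between the strains (-0.04 otherwise), and changes under it are relative to these shifts. Normexp put the first at -0.17, and under it 90 members still rose and 91 still fell at least 2-fold, 132 were higher on xylose in WT and all 135 were lower in TMS174. The median share kept, 24.2%, was 13.7% under spike-in scaling and 10.8% under normexp, and 21.99% to 27.6% with 1 array left out. Members in runs, 44, were 98 under spike-in scaling, 17 under normexp, 21 at thresholds of 1.5, 24 with each probe passing, and 30 to 51 with 1 array left out. The cause of these changes was not tested.

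Over all tested design IDs, 1417 were called between TMS174 and WT on xylose (583 higher, 834 lower). The count was 3980 under spike-in scaling (83 and 3897), and the split was 722 and 530 under quantile normalization, 789 and 703 under median scaling and 692 and 522 under normexp. It ranged from 323 to 2060 with 1 array left out: leaving out WT xylose replicate 1 gave 634, WT xylose replicate 3 gave 590, TMS174 replicate 1 gave 353 and TMS174 replicate 2 gave 323. The replicate number as a block, which does not pair the arrays, gave 755 calls there (83 members called in place of 109), 5367 between the media in WT in place of 5493, and 4569 between TMS174 and WT on glucose in place of 4991. Deviations of arrays with the same number correlated at -0.14 to 0.17, and not every array correlated best with its own number. Between the media in WT, the split of 2780 higher and 2713 lower became 3579 and 1161 under spike-in scaling and 2178 and 3559 under normexp. Between TMS174 and WT on glucose it went from 2348 and 2643 to 1214 and 2401 under spike-in scaling.

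Reading the left-out arrays of a replicate number was chosen after seeing the data. Of the 14 named members, none changed the direction of its rise or its fall under these settings. The sizes did change. Under normexp the rise of cut01g0030930 went from 5.64 to 1.27, and that of cut01g0370002 from 8.02 to 3.46. The fall of cut01g0370002 went from -6.71 to -3.58. The difference between TMS174 and WT on glucose turned to 0.11 for cut01g5570001 under quantile normalization and to -0.12 for cut01g0370002 under normexp, both near 0. Signal over background limits what the glucose levels of the 17 glucose-silent members can show.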
